A study of Caenorhabditis elegans with 15 samples.

Results

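The genes described here are the cuticle collagen genes of the nematode Caenorhabditis elegans that carry a name of the form col followed by a number. They were found by their gene identifiers: 156 of the 46926 genes in the deposited table, and of its 19985 protein-coding genes, had such a symbol in the WBcel235 annotation. RNA selected for poly(A) tails was sequenced from whole animals at the L4 larval stage, the last larval stage before the adult. The groups were 6 libraries of the wild-type strain N2 and 3 libraries each of animals labelled as knockouts mec-8 (e398), u74 and u218, called e398, u74 and u218 below. The labels give no gene for u74 and u218, though the deposited averages that hold all 4 genotypes are titled as those of mec-8 mutants. They give no second allele, transgene or treatment for any group, and no statement of whether libraries came from separate cultures. The table holds 1 averaged normalized count per gene and genotype, so most values below are averages without a replicate error.

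Cuticle collagens are secreted by the epidermis and assembled outside it, in a new cuticle made at each moult between larval stages and at the last moult to the adult. Their chains are short triple-helical proteins of Gly-X-Y repeats, hydroxylated and folded in the endoplasmic reticulum and then trimmed and cross-linked by secreted or membrane-bound enzymes. Many of the genes are switched on in a single stage or in a brief window of each moulting cycle, so the mix of col transcripts in a sample of animals depends on the stages and cycle times it holds. Not every col gene codes for a cuticle protein: col-99 codes for a transmembrane collagen.

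The library size factors, the numbers by which the authors' read counts were divided, were recovered from the table. They lay between 0.471 and 1.82 for the wild-type libraries, 0.476 and 0.685 for e398, 1.46 and 1.95 for u74, and 0.831 and 1.99 for u218. The wild-type factors were 1.82, 1.75, 1.59, 0.531, 0.489 and 0.471, so each wild-type average mixes libraries of large and of small size factor. Where an average was low enough, the reads of each library could also be recovered, for 17 of the 156 col genes on the wild-type side, 49 on that of e398, 49 on that of u74 and 72 on that of u218. The recovered libraries are numbered by falling size factor, since nothing ties them to the replicate numbers of the labels. One library of u218 stood apart: library 3 lay at least 4-fold above or below both other u218 libraries for 32.4% of 7405 genes, and for 15.7% of 51 col genes. In e398, library 2 did so for 13.9% of 9546 genes and for 18.8% of 32 col genes. The gene named in the e398 label, mec-8, averaged 1956 normalized counts for wild type, 1070 for e398, 2239 for u74 and 3620 for u218, and a sum over a gene does not show which transcripts an allele leaves.

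All 156 col genes had an average above 0 for wild type, 155 for e398, 152 for u74 and 153 for u218. An average of at least 20 normalized counts was reached by 134 of them for wild type, 129 for e398, 121 for u74 and 120 for u218, and 19 stayed under 20 in every genotype. The family spans a wide range of levels. Per kilobase of exon, the median col gene was at 9224 normalized counts for wild type, 10963 for e398, 4466 for u74 and 568.3 for u218. As a share of all normalized counts of a genotype, the family held 9.05% for wild type, 12.9% for e398, 5.81% for u74 and 3.10% for u218. The order of these shares could not be tested, because the table has 1 value per genotype. In whole animals, fewer epidermal cells and less RNA per cell cannot be told apart.

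**Figure D1:**
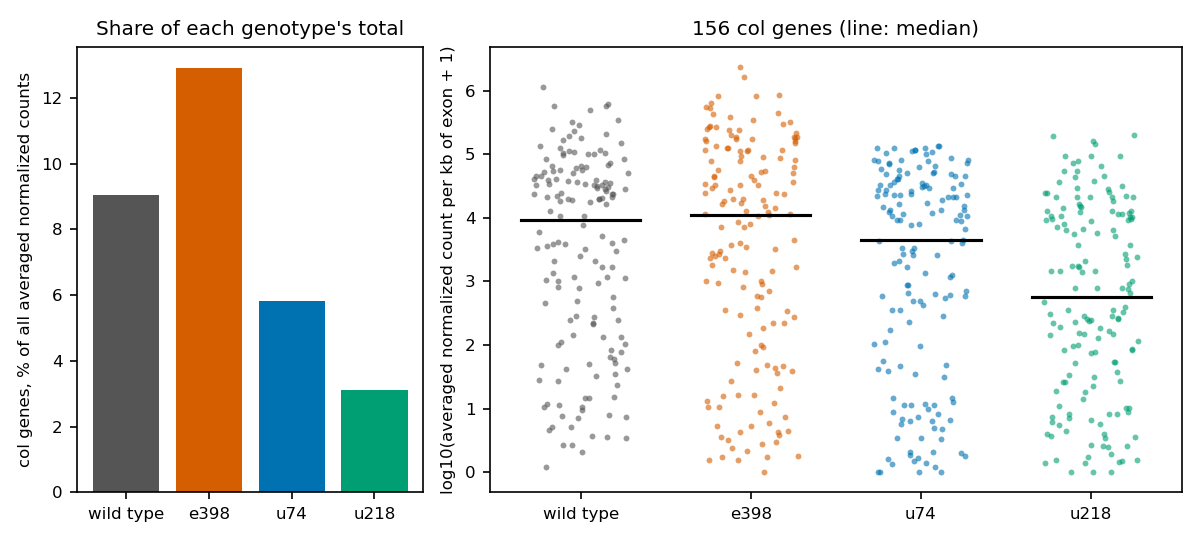
Left, bars give the share of all averaged normalized counts held by the 156 col genes in each genotype, in percent, with e398 highest at 12.9 and u218 lowest at 3.10. Right, each point is 1 col gene on a log10 scale of averaged normalized count per kilobase of exon plus 1, and the black line is the median, which is lowest in u218.

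Among the most abundant col genes of wild-type L4 animals, several had far lower averages in u74 and u218. The gene col-125, first in wild type per kilobase, averaged 1055564 normalized counts for wild type, 1544434 for e398, 104287 for u74 and 151439 for u218. The gene col-176, second in wild type, averaged 663482 for wild type, 902881 for e398, 4385 for u74 and 10369 for u218. Thus u74 and u218 held both transcripts at a small fraction of the wild-type and e398 levels. On the scale log2 of (average + 1), the ratio of col-176 to wild type was -7.24 in u74. The next in order, col-166, averaged 521471 for wild type, 493605 for e398, 30661 for u74 and 180993 for u218. Of the other genes among the 10 most abundant per kilobase in wild type (col-93, col-167, col-107, col-38, col-98, col-80 and col-10), each had a lower average in u74 and in u218 than in wild type. Their log2 ratios ran from -1.80 (col-80) to -4.76 (col-98) in u74, and from -1.35 (col-10) to -5.13 (col-80) in u218.

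Of the comparisons with wild type, that of u218 had the most col genes called lower. A gene was considered when either average reached 20 normalized counts, and called at a 2-fold ratio, with no test. Of 136 col genes considered, 98 were lower and 8 higher in u218, with a median log2 ratio of -2.22. Over all genes considered, 35.8% were lower and 10.4% higher by the same rule, with a median log2 ratio of -0.26. A stricter count took only genes whose wild-type average exceeded 3 times the u218 average, a value that no single u218 library could then have reached. That held for 84 of the 136 col genes, against 27.9% of all genes considered.

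A group of col genes was very low in u218. In 30 of the 136 the u218 average was at least 32-fold below the wild-type average, 22.1% of the col genes considered, against 3.14% of all genes considered. These 30 were chosen by that ratio, which is therefore a description. The group holds col-19 and col-7, whose transcripts are known from the adult and which serve as markers of the adult epidermis, and also col-62 and col-119. The gene col-19 (WBGene00000608, WBcel235 chromosome X, 421707 to 422691, plus strand) averaged 26368 normalized counts for wild type, 15879 for e398, 67364 for u74 and 143 for u218. In the recovered u218 libraries, col-19 stood at 88.0, 116 and 225 normalized counts in libraries 1, 2 and 3. Library 3 was the highest of them.

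Similar values recurred in many genes of the group, but not in all. The gene col-129 averaged 48716 normalized counts for wild type, 213776 for e398, 133200 for u74 and 312 for u218. For col-140 the averages were 38300 for wild type, 251915 for e398, 108165 for u74 and 223 for u218. For col-122 they were 38563 for wild type, 51304 for e398, 119934 for u74 and 290 for u218. In each of these genes u218 was the lowest genotype by a wide margin, and u74 was above wild type. The direct log2 ratios of u218 to u74 were -8.73 for col-129, -8.91 for col-140, -8.69 for col-122 and -8.87 for col-19. The u218 averages by which these genes were chosen enter these ratios too, so they are a description and no separate support. Other genes of the group were lower than wild type in u74. Their log2 ratios to wild type in u74 were -7.24 for col-176, -1.80 for col-80, -3.35 for col-142 and -3.82 for col-150. The genes col-36, col-102 and col-148 were also lower there. In col-176 and col-36 the u74 average lay below that of u218.

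The reads of all u218 libraries could be recovered for 23 of the 30 genes. Library 3, the one that stood apart, was the highest of the u218 libraries in 20 of the 23. The median over the 23 genes was 88.0 normalized counts in library 1, 94.8 in library 2 and 225 in library 3, and the median ratio of library 3 to the mean of the other two was 2.41. Among the 52 col genes that were considered and recovered in u218, 41 were at least 2-fold below wild type with all libraries and also 41 without library 3. The number at least 2-fold above went from 1 to 2. Recovery needed a u218 average below 330 normalized counts, so a high share below wild type follows from that limit. The col genes abundant in u218 are not covered. Some markers of reproduction were also lower in u218, where 35.8% of all genes considered were lower. This held for all 6 vitellogenin genes, which code for yolk proteins made by the adult intestine. Their summed average was 455890 normalized counts for wild type, 268938 for e398, 1156212 for u74 and 4556 for u218. In e398 this sum was below wild type, while some col genes of the group were higher and others lower there. Of the germline control genes glp-1, gld-1 and pgl-1, only gld-1 was 2-fold lower in u218. All 5 major sperm protein genes listed were lower in u218 as well, with summed averages of 34377 for wild type, 122038 for e398, 37042 for u74 and 390 for u218. None of these genes was at 0 in any genotype, and their part in the col values was not tested.

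**Figure D2:**
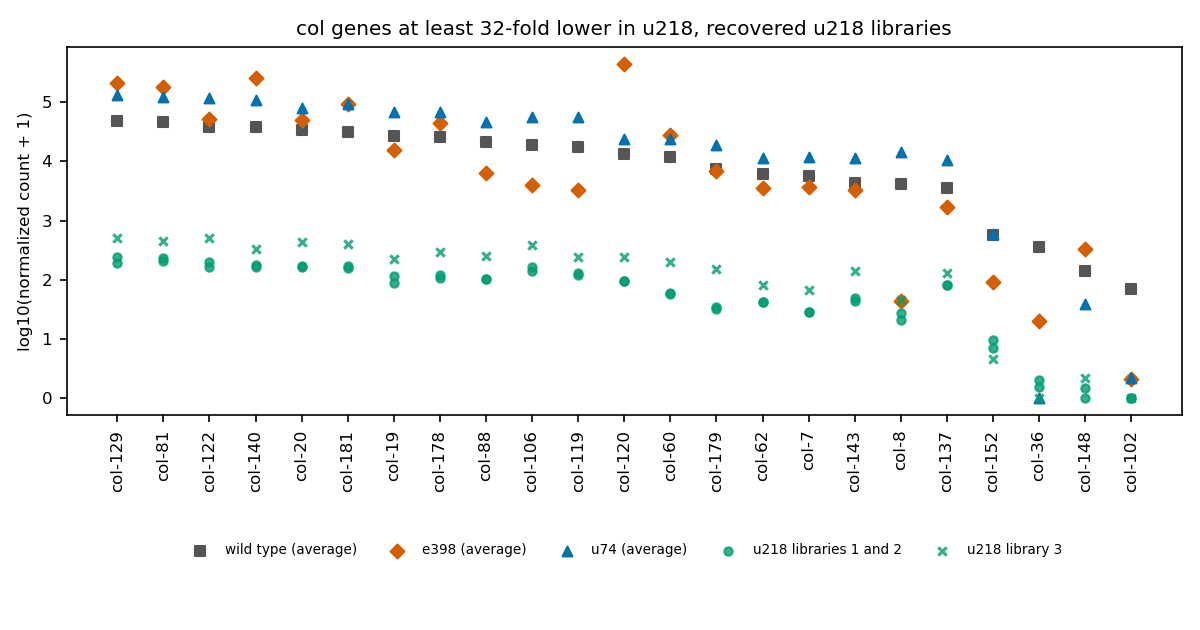
The 23 col genes at least 32-fold lower in u218 whose u218 reads were recovered, with log10 of normalized count plus 1 on the vertical axis. Squares, diamonds and triangles are the averages of wild type, e398 and u74, and green circles and crosses are single u218 libraries (crosses, library 3). The genes were chosen for their low u218 averages. The cross is the highest u218 point in 20 of 23.

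Few col genes were higher in u218. The gene col-17 averaged 36012 normalized counts for wild type, 21296 for e398, 30001 for u74 and 207790 for u218, a log2 ratio to wild type of 2.53. The gene col-54 averaged 1083 for wild type, 940 for e398, 393 for u74 and 8649 for u218, a log2 ratio of 3.00. It was the only col gene whose u218 average exceeded 6 times the wild-type average, more than any single wild-type library could have held, against 0.462% of all genes considered. The remaining genes at or near 2-fold higher were col-42, col-173, col-169, col-90 and col-41, with log2 ratios of 1.83, 1.48, 1.43, 1.02 and 0.97, the low-abundance gene col-47 with 1.33, and the transmembrane collagen gene col-99. Exons of col-90 share 8.66% of their bases with let-754, so its reads may be split between genes.

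In u74 the col genes went both ways, with more of them lower. Of 135 considered, 64 were lower and 25 higher than in wild type, with a median log2 ratio of -0.78. Over all genes considered, 29% were lower and 6.47% higher, with a median of -0.07. For 51 col genes the wild-type average exceeded what any single u74 library could have held (21.8% of all genes), and for 3 the u74 average exceeded what any single wild-type library could have held (0.153%). The first count needs over 3-fold and the second over 6-fold, so they cannot be set against each other. Beside col-176, the lowest ratios among genes with at least 50 normalized counts belonged to col-36, col-158, col-153, col-41, col-102, col-128 and col-98. The gene col-158 averaged 1632 normalized counts for wild type, 1095 for e398, 12.6 for u74 and 61.3 for u218. The gene col-41 averaged 51210 for wild type, 34091 for e398, 1599 for u74 and 100325 for u218, so u74 was its lowest and u218 its highest genotype.

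At the other end in u74, col-95 averaged 67.5 normalized counts for wild type, 4.50 for e398, 1773 for u74 and 2.69 for u218. Its log2 ratio to wild type was 4.69 in u74 and -3.64 in e398. The neighbouring gene col-96 averaged 1204 for wild type, 1557 for e398, 4775 for u74 and 121 for u218. Both had their highest average in u74 and their lowest in u218. The gene col-135 averaged 85.4 for wild type, 7.06 for e398, 587 for u74 and 3.46 for u218. The gene col-101 averaged 1647 for wild type, 4235 for e398, 11142 for u74 and 1296 for u218. These genes, with col-8, col-119, col-126 and col-122, had the 8 highest u74 ratios at the same minimum, from 4.69 for col-95 to 1.64 for col-122.

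In e398 the col genes were more often higher than lower. Of 136 considered, 48 were higher and 18 lower than in wild type, with a median log2 ratio of 0.18. Over all genes considered, 11.4% were higher and 19.9% lower, with a median of -0.05. The count beyond any single library was 7 higher, against 1.14% of all genes, and 12 lower, against 11.2%. The gene with the highest ratio, col-120 (WBGene00000694, WBcel235 chromosome IV, 9260610 to 9261787, minus strand), has a reported role in longevity. It averaged 13111 normalized counts for wild type, 446396 for e398, 24016 for u74 and 146 for u218. The gene col-38 averaged 298526 for wild type, 2158852 for e398, 54023 for u74 and 10683 for u218, which made it the most abundant col gene per kilobase in e398 and the 7th in wild type. The gene col-184 averaged 22295 for wild type, 270264 for e398, 50798 for u74 and 361 for u218. The genes col-63, col-140, col-131, col-34 and col-175 followed, with log2 ratios between 2.84 and 2.58.

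Markers of other tissues were counted by the same rule. Of all genes considered, 11.4% were higher and 19.9% lower in e398, and 6.47% higher and 29% lower in u74. In u218, 10.4% were higher and 35.8% lower. Nothing is read from the small counts that follow. In e398, 4 of the 5 sperm genes were higher and 1 lower, with the summed averages given above. Of 3 germline control genes (glp-1, gld-1 and pgl-1), 1 was lower in e398, 1 higher in u74 and 1 lower in u218, each time gld-1, which averaged 19735 normalized counts for wild type, 2030 for e398, 47517 for u74 and 6632 for u218. Of the 6 vitellogenin genes, 2 were higher and 2 lower in e398, and 5 were higher in u74. The summed average of the 3 germline control genes was 43913 normalized counts for wild type, 14949 for e398, 89438 for u74 and 22855 for u218. Of 5 genes listed for the seam cells, the epidermal cells along the flanks, 1 was higher and 1 lower in e398, 2 were lower in u74 and 1 was lower in u218. Their summed average was 22751 normalized counts for wild type, 15959 for e398, 7012 for u74 and 10673 for u218. None of these genes was at 0 in any genotype, and their part in the col values was not tested.

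Among genes with at least 50 normalized counts in either genotype, the lowest ratios in e398 belonged to col-8, col-102, col-99, col-36, col-95, col-135, col-152 and col-119, from -6.56 to -2.39 on the log2 scale. The gene col-8 averaged 4088 normalized counts for wild type, 42.4 for e398, 14202 for u74 and 30.4 for u218. Its e398 libraries stood at 13.1, 27.9 and 86.2 normalized counts. The gene col-119 averaged 17275 for wild type, 3302 for e398, 57348 for u74 and 164 for u218. The wild-type column is shared by these comparisons, so a low or high wild-type average enters all of them. The direct log2 ratios of u74 to e398 were 8.35 for col-8, 8.33 for col-95, 6.19 for col-135 and 4.12 for col-119. These genes were listed for their low e398 ratios and are also among the 8 highest u74 ratios. The same averages enter the direct ratios, which are therefore a description and no separate support. For col-102 the averages were 69.7 for wild type, 1.10 for e398, 1.24 for u74 and 0 for u218.

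**Figure D3:**
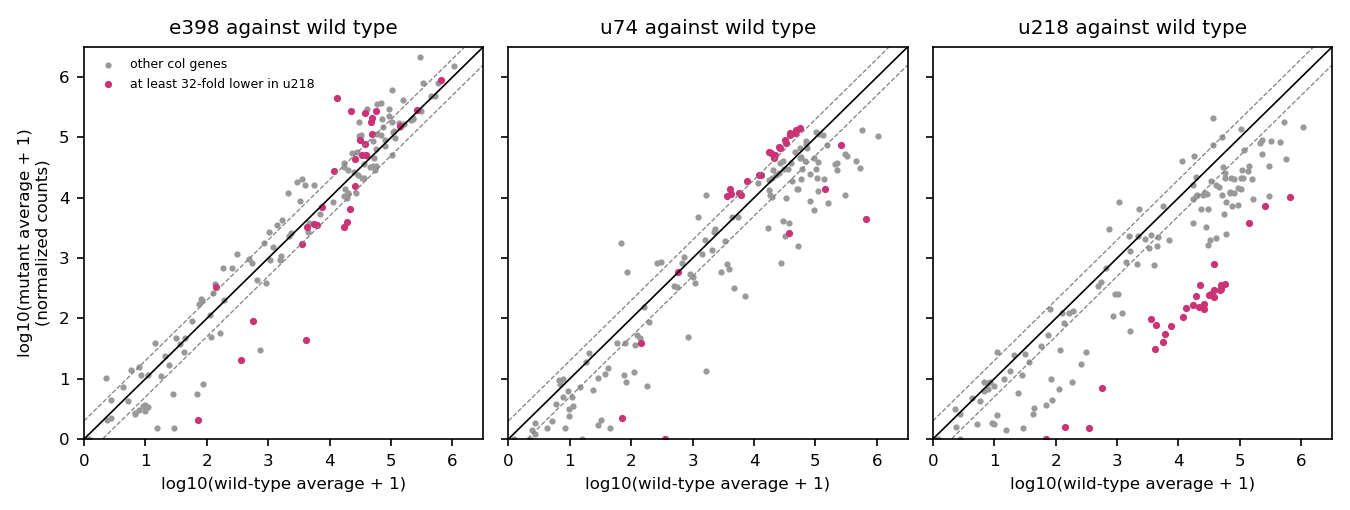
Each point is 1 col gene, with log10 of (average normalized count + 1) in wild type on the horizontal and in the mutant on the vertical axis; the solid line marks equal values and the dashed lines 2-fold differences. The 30 genes at least 32-fold lower in u218 (pink) were chosen on the right panel. Most of them lie near or above the line of equality in e398 and u74. Some lie well below it, among them col-8, col-102 and col-36 in e398 and col-176, col-36 and col-102 in u74.

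The transmembrane collagen gene col-99 (WBGene00000674, WBcel235 chromosome IV, 137974 to 147919, minus strand) is annotated with 19 exons. It averaged 734 normalized counts for wild type, 28.7 for e398, 1052 for u74 and 2987 for u218. The e398 libraries stood at 20.4, 27.9 and 37.9 normalized counts. The log2 ratios to wild type were -4.63 in e398, 0.52 in u74 and 2.02 in u218. Between u218 and e398 the log2 ratio was 6.65. Its exons share 3.65% of their bases with daf-1.

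Known stages of expression were examined with a list of 14 col genes. In u218, 11 of the 13 considered were lower and 1, col-17, was higher. In e398, 4 were higher and 2 lower, and in u74, 3 were higher and 2 lower. By the same rule, 35.8% of all genes and 98 of 136 col genes were lower in u218. Of all genes, 11.4% were higher and 19.9% lower in e398, and 6.47% were higher and 29% lower in u74; nothing is read from the small counts in these. The genes col-7 and col-62 are neighbours on chromosome I. The gene col-7 averaged 5588 normalized counts for wild type, 3635 for e398, 11897 for u74 and 40.4 for u218, with u218 libraries at 27.2, 27.9 and 66.2. The gene col-62 averaged 6135 for wild type, 3506 for e398, 11234 for u74 and 54.6 for u218, with u218 libraries at 41.3, 40.7 and 81.9. Both had their highest average in u74 and their lowest in u218. The genes col-38, col-49, col-63 and col-138, described as expressed in the L4 stage, were lower in u218, with log2 ratios of -4.80, -4.20, -4.26 and -3.38. In e398 the first 3 of these were higher, with log2 ratios of 2.85, 1.79 and 2.84, and col-138 was at -0.93. The genes col-12 and col-13, which lie next to each other on chromosome V, had log2 ratios of -1.34 and -0.87 in u218. The gene col-17, the only one of the list higher in u218, stood at log2 ratios of -0.76 in e398 and -0.26 in u74.

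Of the genes with a reported role in longevity, col-10, col-13 and col-120, only col-120 was at least 2-fold higher in e398. The gene col-10 averaged 227558 normalized counts for wild type, 210361 for e398, 28784 for u74 and 89209 for u218. The gene col-13 averaged 20082 for wild type, 11823 for e398, 28797 for u74 and 10990 for u218. Each of the 3 had a different genotype as its highest: wild type for col-10, u74 for col-13 and e398 for col-120.

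Between mutants, where both sides could be recovered for more genes, some col genes could be tested. The test was limma on log2(normalized count + 1), with p-values adjusted by Benjamini-Hochberg over all genes tested. It covers only col genes of low abundance, since the recovery was limited to averages below 430 for e398, 350 for u74 and 330 for u218. The p-values measure the spread between these libraries, which may be technical.

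In u74 against e398, 2 of 26 col genes tested rose and 11 fell, against 14.4% of all genes that rose and 36.4% that fell. These counts are close to what the shares of all genes would give, and are not a result about the family. The gene col-171 stood at 23.4, 73.9 and 44.2 normalized counts in the e398 libraries and at 1.03, 0.632 and 0 in the u74 libraries. It fell by 4.87 on the log2 scale (standard error 0.63, limma adjusted p = 0.00087). The groups did not overlap, but 48.5% of the exon bases of col-171 also belong to T10E10.8, so the reads may come from either gene.

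The gene col-108 stood at 24.8, 85.4 and 31.5 normalized counts in e398 and at 0.513, 1.26 and 1.37 in u74. It fell by 4.38 (standard error 0.63, limma adjusted p = 0.0012). Its u218 libraries stood at 28.2, 22.3 and 24.08. None of its exon bases is shared with another gene in the annotation.

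The gene col-56 stood at 270.2, 131.4 and 124.1 normalized counts in e398, 15.9, 10.7 and 4.80 in u74, and 68.9, 82.5 and 3.61 in u218. In u74 against e398 it fell by 3.98 (standard error 0.55, limma adjusted p = 0.0011). Here u218 library 3 lay far below the other two. The gene col-36 stood at 21.9, 6.57 and 29.4 in e398, at 0 in all u74 libraries, and at 1.01, 0.557 and 0 in u218. Against e398, it fell by 4.12 in u74 (limma adjusted p = 0.0020) and it fell by 3.57 in u218 (limma adjusted p = 0.0109). Wild type averaged 354 normalized counts for col-36, above e398, and 1.59% of its exon bases belong also to dyf-13. In u74 against e398, col-105 fell by 2.19, col-151 fell by 2.33 and col-187 fell by 2.59. The other genes that fell, col-64, col-75, col-83 and col-121, and the 2 that rose, col-163 and col-177, each lost the call without e398 library 1 and without at least 1 other library. Exon bases are shared with other genes for 15.2% in col-151, 31.3% in col-64, 14.7% in col-83 and 8.95% in col-121.

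In u218 against e398, none of 31 col genes tested rose by limma, where 9 had an unadjusted p under 0.05 in either direction; voom, limma's weighted variant, also called 0 that rose. The 3 that fell were col-171, col-36 and col-123, against 10.7% of all genes that rose and 32% that fell. The gene col-123 stood at 10.2, 189 and 135 normalized counts in e398 and at 2.01, 8.36 and 7.22 in u218. It fell by 3.43 (standard error 1.147, limma adjusted p = 0.0449). Its call was lost without e398 library 2 or 3, without any of the u218 libraries, with voom and with no filter, and 26.3% of its exon bases belong also to catp-6 or W08D2.11. Without e398 library 2, which stood apart, 7 of 32 col genes fell, against 29.9% of all genes.

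In u218 against u74, 3 of 27 col genes tested rose and 2 fell, against 11.1% and 16.9% of all genes. The gene col-148 stood at 27.7, 43.0 and 42.5 normalized counts in u74 and at 0.503, 0 and 1.204 in u218. It fell by 4.67 (standard error 0.53, limma adjusted p = 0.0023). In e398, its libraries stood at 489, 0 and 519, and library 2, at 0, was the one that stood apart. The gene col-108 rose by 3.68 (standard error 0.48, limma adjusted p = 0.0035), and col-158 rose from 16.4, 13.9 and 7.54 to 58.4, 49.6 and 75.9 normalized counts, by 2.23 (adjusted p = 0.0149). The gene col-47, 66.6% of whose exon bases also belong to col-46 or Y18H1A.9, rose by 2.65, and col-44 fell by 2.86. Exon bases are also shared in col-158 (12.3%, nphp-4 or D2023.15) and in col-148 (7.06%, C12D8.9 or C12D8.23). The calls of col-158, col-47 and col-44 were lost without u74 library 2 and without u74 library 3, and the last 2 also without u218 library 1. Without u218 library 3, 7 rose and 3 fell: the 5 named above were called again, and col-53, col-56, col-75 and col-105 rose and col-40 fell. In that setting 32.5% of all genes rose and 24.8% fell, so the col genes called lie below those shares.

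**Figure D4:**
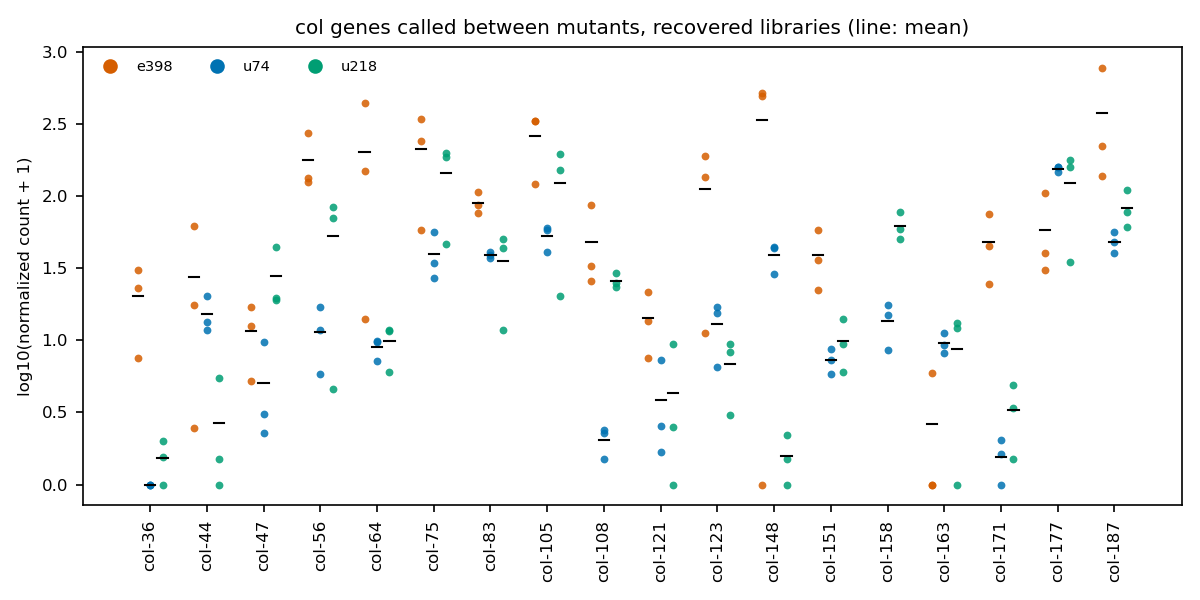
The 18 col genes called by limma between any pair of mutants, with log10 of normalized count plus 1 in each recovered library (points) and the mean of 3 libraries (line); genes are in order of number. In col-171, col-108 and col-36 the e398 libraries lie above all u74 libraries. In col-148 the u218 libraries lie below all u74 libraries and e398 library 2 lies at 0. The values of col-158 in e398 were not recovered.

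Against wild type, the test covered only col genes with a wild-type average under 10, since averages above that were not resolved into libraries. None of the col genes tested passed by limma, with 8 tested in e398, 9 in u74 and 9 in u218. At an unadjusted p under 0.05 the counts were 0, 0 and 1, and voom called 0, 0 and 1. Over all genes tested, 2.05%, 3.23% and 3.08% rose and 0% fell in e398, u74 and u218. Wild-type averages under 10, with the minimum mean needed for testing, left little room for a fall to be called. The lack of falls, among col genes and all genes, may follow from these limits, and nothing is read from it. The gene called by voom was col-47, which stood at 0, 2.29, 14.5, 20.7, 22.5 and 0 normalized counts in wild type and at 18.6, 43.5 and 18.1 in u218. These groups overlap, and its limma adjusted p was 0.101. The differences of the abundant col genes from wild type therefore rest on the averages and were not tested.

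Comparing the averages of the mutants directly, u74 had 25 col genes higher and 77 lower than e398, 19.1% and 58.8% of those considered, against 27.8% and 37.2% of all genes. With TMM scaling in place of the authors' size factors these numbers were 34 and 64. At a minimum of 50 normalized counts in either genotype, the lowest ratios of u74 to e398 were -7.69 for col-176 and -6.48 for col-132. The count beyond any single library was 15 higher and 63 lower, against 19.1% and 29.7% of all genes. In u218, 13 were higher and 98 lower than in e398 of 130, against 26.9% and 40.7%. At the same minimum, the lowest ratios of this pair were -11.57 for col-120 and -10.13 for col-140. Beyond any single library were 5 higher and 84 lower, against 17.2% and 34.3% of all genes. In u218 against u74, 29 were higher and 58 lower of 125, against 18.7% and 20.6%, and beyond any single library were 17 higher and 51 lower, against 7.14% and 15.6%. Among genes with at least 50 normalized counts in either genotype, the highest log2 ratio of u218 to u74 was 5.97, for col-41, and col-54, col-90, col-128 and col-46 followed with 4.46, 4.29, 3.10 and 2.81. Of 137 col genes considered over all genotypes, the highest average was in e398 for 72, in u74 for 31, in wild type for 22 and in u218 for 12. These are 52.6%, 22.6%, 16.1% and 8.76% of the col genes, against 39.8%, 25.4%, 7.98% and 26.8% of all genes considered. The lowest was in u218 for 77, in u74 for 47, in e398 for 10 and in wild type for 3. These are 56.2%, 34.3%, 7.30% and 2.19%, against 25.6%, 35.2%, 37.2% and 2.04% of all genes, so the share lowest in u74 is at that of all genes.

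Many col genes lie close together. Within 10 kb of another col gene were 50 of them, in 21 runs on the annotation, and the members of 10 runs had a single coding length. In the pair col-117 and col-3 on chromosome IV, both of 897 coding bases, the log2 ratios to wild type differed by 0.06 in u74 and 0.02 in u218. The averages of col-117 were 109632 normalized counts for wild type, 122607 for e398, 12785 for u74 and 28537 for u218. Those of col-3 were 80481 for wild type, 90201 for e398, 8976 for u74 and 20701 for u218. Near-identical copies can share reads, and how the authors counted such reads is not stated.

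Other neighbours differed widely. The run col-17, col-20 and col-73 on chromosome II spans 4866436 to 4873129 in WBcel235. In u218, col-17 had a log2 ratio to wild type of 2.53, col-20 of -7.04 and col-73 of 0.45. Averages of col-20 were 33466 normalized counts for wild type, 50380 for e398, 80873 for u74 and 254 for u218. Those of col-73 were 102724 for wild type, 50818 for e398, 121111 for u74 and 140259 for u218. Members of a single run were thus high, low and near wild type in the same libraries. On chromosome X, col-167, col-168, col-169, col-170 and col-171 form the longest run, and their log2 ratios ran from -4.84 to -0.71 in u74 and from -4.07 to 1.43 in u218. Over the runs with at least 2 genes considered, the median spread within a run on the log2 scale was 0.64 for e398, 1.496 for u74 and 1.24 for u218.

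**Figure D5:**
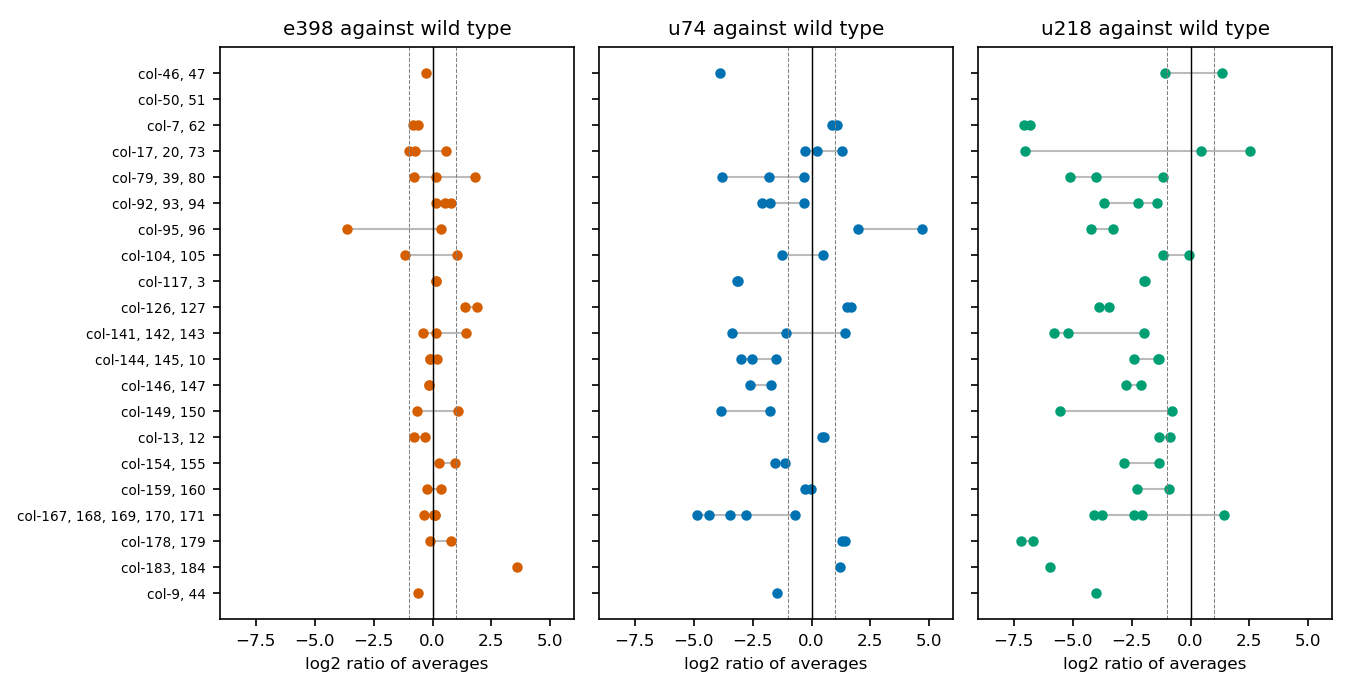
Each row is 1 run of neighbouring col genes and each point the log2 ratio of averages, mutant to wild type, of 1 member; the grey bar joins the members and dashed lines mark 2-fold differences. Pairs such as col-117 and col-3 lie together in all panels, whereas col-17, col-20 and col-73 span 9.57 log2 units in u218.

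Cuticle collagen genes with other names were compared by the same rule. Of 22 named for body shape phenotypes (dumpy, roller, squat, blister and others), 8 were higher and 0 lower in e398, 0 higher and 14 lower in u74, and 7 higher and 10 lower in u218. Of all genes considered, 11.4% were higher and 19.9% lower in e398, and 6.47% higher and 29% lower in u74. In u218, 10.4% of all genes were higher and 35.8% lower. The gene rol-1 averaged 86829 normalized counts for wild type, 970075 for e398, 52123 for u74 and 1708 for u218. The furrow collagen gene dpy-7 averaged 4904 for wild type, 3252 for e398, 2726 for u74 and 19986 for u218. In u218 these genes thus went both ways. Of 4 collagens outside the cuticle, the basement membrane chains emb-9 and let-2, cle-1 and mec-5, none reached 2-fold in e398 and 2 were lower in u74. In u218, 2 were lower and 1, mec-5, was higher. Nothing is read from counts out of 4 genes.

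Genes that make or process collagen, 34 in a list of hydroxylases, isomerases, proteases, cross-linking enzymes, secretion factors and epidermal regulators, were compared by the same rule. In e398, 4 were higher and 1 lower, in u74 0 higher and 9 lower, and in u218 2 higher and 5 lower. Of all genes considered, 11.4% were higher and 19.9% lower in e398, and 6.47% higher and 29% lower in u74. In u218, 10.4% were higher and 35.8% lower. The counts of the list lie near or below these shares and are not a result about it. The gene pdi-2, a protein disulfide isomerase that is a subunit of the prolyl 4-hydroxylase complexes, averaged 615411 normalized counts for wild type, 910469 for e398, 94378 for u74 and 243155 for u218. The prolyl 4-hydroxylase subunit gene dpy-18 stood between 9835 (u74) and 18837 (u218). The gene nhr-23, a nuclear hormone receptor needed for moulting, averaged 17917 for wild type, 16200 for e398, 3625 for u74 and 3777 for u218. The epidermal identity factor gene lin-26 stayed between 4002 and 4650 in all genotypes. Of the 7 epidermal identity genes, 0 were 2-fold different in e398, 3 were lower in u74, and 2 were higher and 1 lower in u218. The summed average was 33529 for wild type, 30918 for e398, 15111 for u74 and 24322 for u218, and none was at 0.

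The median pattern of the col genes over the 4 genotypes, centred on its own mean on the log2 scale, was 0.80 for wild type, 1.11 for e398, -0.50 for u74 and -1.40 for u218. The 5 genes outside the family nearest to it by Euclidean distance were F19C6.4, nape-2, C01G6.9, grl-8 and srx-67, with distances from 0.12 to 0.21.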

How the data were processed

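Poly(A) RNA libraries of 6 wild-type, 3 e398, 3 u74 and 3 u218 whole-animal samples were the source. The deposited table gives a signal per gene and genotype, averaged normalized counts made by the authors. The submitters' processing notes name bedtools, HTSeq, DESeq and DESeq2 with no versions. Of strandedness, aligner, build and annotation nothing is stated in those sources. Antisense and overlapping genes therefore cannot be separated.

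Identifiers were matched to WBcel235 gene symbols (Ensembl release 115), and all 46926 matched. Averages were compared as log2((average + 1)/(average + 1)), with a minimum average of 20 in either genotype and a threshold of 2-fold. Whole reads per library were recovered from the averages as sums of whole multiples of 1 weight per library, in the wild type below 10, e398 below 430, u74 below 350 and u218 below 330 normalized counts. The limits were set so that no value below them had over 1 solution, which is therefore no test of the recovery. All values below them did have a solution, and so exactly 1. Of values moved off their place, up to 63.3% (u74, 300 to 350) also had a solution, so a single solution is weak evidence near the limit. Tested on simulated reads, every resolved value returned the drawn reads. The recovered reads were used with limma 3.58.1 (R 4.3.3, trend) on log2(normalized count + 1) at a minimum mean of 5 normalized counts. Depth is known only through the size factors. Chi-square comparisons of the libraries of each genotype found none that agreed within counting noise.

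Named genes followed a rule: the 10 most abundant in wild type, the 8 highest and 8 lowest ratios for each mutant, the 5 highest and 5 lowest between mutants (ratios of genes with at least 50 normalized counts in either genotype), up to 6 limma calls per direction, and the stage and longevity lists. Those named outside it are examples from runs and overlaps. The members and lists were chosen with earlier results of these data known.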

Additional observations from a re-analysis of the deposited data

Results flagged for a closer look

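In 6 of 17 col genes with all 6 wild-type libraries recovered, the highest library lay far from the rest by a gap test. That test flags about 1 in 20 groups by chance when values are normally distributed. Here the values are few reads over libraries of unequal size factor, so that rate does not apply. The 6 genes are listed as a description. The highest library held 28.6 normalized counts for col-2 (next highest 8.78), 36.8 for col-50 (next 7.56) and 36.5 for col-72 (next 8.50). It held 23.1 for col-116 (next 6.37), 29.7 for col-165 (next 7.56) and 1.26 for col-37 (all others at 0, so a single read). The library concerned was library 5 for col-2 and col-50, library 3 for col-37 and col-72, library 1 for col-116 and library 6 for col-165. All of these genes are at low read numbers, and the cause was not tested.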

How the results depend on the processing

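All counts of col genes at least 2-fold higher or lower by averages stayed within 1.5 times of the reported ones with pseudocounts of 0.5 and 10, other minimum averages, TMM scaling or recentring. TMM factors raised all log2 ratios by 0.29 in u74 and 0.44 in u218 against wild type, and by 0.52 in u74 and 0.57 in u218 against e398; for u218 against u74 they changed by -0.21. Of 3323 single-gene values past 2-fold, 3236 stayed past it, 87 did not (57 of them under TMM), and 0 reversed. In the limma counts, for u74 against e398, 1 gene rose with a pseudocount of 10, a minimum mean of 20, no filter or a recovery limit of 100, and 6 fell at that limit; leaving out single libraries gave 0 to 2 that rose and 8 to 12 that fell. For u218 against e398, leaving out libraries gave 2 to 7 that fell. For u218 against u74, 1 rose and 0 fell at a minimum mean of 20, 1 fell with no filter, and leaving out libraries gave 1 to 7 that rose and 1 to 3 that fell. Against wild type, 1 rose in u218 by voom, and 1 rose in e398 when wild type was limited to its 3 libraries of large size factors. Fewer genes are tested at the stricter limits; otherwise the cause was not tested. The recovery limit of 100 and the wild-type subsets, and the averages without u218 library 3 or e398 library 2, were chosen after seeing the data. Calls past the threshold under every alternative that gave a value were col-36, col-56, col-105, col-108, col-151, col-171 and col-187 (u74 against e398), col-36 and col-171 (u218 against e398), and col-108 and col-148 (u218 against u74). Tests with edgeR and DESeq2 were planned and not run, since the deposited columns are averages and not counts. Keeping 1 member per group of near-identical proteins, and a description of sequences, were not run either. No paired analysis was possible because the recovered libraries carry no replicate numbers. Depth limits the wild-type side: averages of 10 or more could not be split into libraries.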
